A study of Mus musculus with 3 samples.

Results

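The proteasome is the barrel-shaped protease that degrades ubiquitin-tagged proteins, and its subunit genes were followed here in T cells taken from mouse tumours. Genes were chosen by symbol: every gene whose symbol begins with Psma, Psmb, Psmc, Psmd or Psme, which gave 45 of the 31053 genes in the table. They were divided into the 5 immunoproteasome genes (Psmb8, Psmb9, Psmb10, Psme1 and Psme2) and the other 40. The rule reads gene symbols and no measured value.

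The cells were T cells sorted as TCRB+ CD3+ CD90.2+ CD11b- from MC38-Ova or B16-Ova tumours that had grown subcutaneously in C57BL/6 mice and were taken on day 14. MC38-Ova and B16-Ova are mouse colon carcinoma and melanoma lines that carry ovalbumin, a model antigen. All cells went through 1 10x Genomics 5′ capture, in which hashtag 2 marked MC38-Ova cells and hashtag 1 marked B16-Ova cells. How many mice were pooled under a hashtag is not stated, so each tumour is 1 pool with no replicate, and the age and sex of the mice are not given either. Antibody tags read the surface proteins PD-1 and Tim-3, and a further tag read the biotin on L-Pha, a lectin from plants with affinity for branched N-glycans. No knockout or drug was part of the design.

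Of 19912 barcodes, 18429 had 500 genes or more and a mitochondrial share no higher than 10% of UMIs (unique molecular identifiers, each standing for 1 captured RNA molecule). Of these, 14992 carried 1 clear hashtag, 8407 of MC38-Ova and 6585 of B16-Ova, and 3045 carried at least 150 UMIs of both hashtags. Classes were set by raw UMIs of Cd8a and Cd8b1, Foxp3 and Cd4, which gave 4336 CD8 cells, 1737 Treg cells and 1489 CD4 cells without Foxp3. The general T cell marker Cd3e, which the classes did not use, stood between 972 and 1284 CPM (counts per 1000000 RNA UMIs) in all 6 combinations of class and pool, and Foxp3-positive cells had 1471 and 1813 CPM of Ctla4, a Treg marker, against 373 to 697 CPM in the other classes. Sums of UMIs per group ranged from 402010 to 20937848 molecules. Some classed cells carried RNA of other cell types: 822 of the 7562 held at least 2 UMIs of macrophage, melanoma, stroma or B cell markers.

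The core of the proteasome, the 20S particle, is built of alpha subunits (Psma) and beta subunits (Psmb), and 3 of the beta subunits cut peptides: Psmb5, Psmb6 and Psmb7. Interferons induce a replacement for each, Psmb8 for Psmb5, Psmb9 for Psmb6 and Psmb10 for Psmb7, and a particle with the replacements is called the immunoproteasome. Psme1 and Psme2 form the PA28 activator, a ring that docks on the end of the core and that interferon also induces. The 19S cap, with ATPases (Psmc) that unfold substrates and non-ATPase subunits (Psmd), recognises ubiquitin. Peptides made by the proteasome are carried by Tap1 and Tap2 to MHC class I molecules, and lymphocytes are known for a high immunoproteasome content at rest.

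Position links several of the immunoproteasome genes. In GENCODE vM21 on GRCm38, Psmb9 lies on the minus strand of chr17:34181987-34187764 and Psmb8 on the plus strand of chr17:34197721-34201454, inside the MHC. Tap1 lies between them at chr17:34187553-34197225 on the plus strand, so that its first bases overlap the start of Psmb9, and Tap2 follows at chr17:34203527-34216321. Psme1 (chr14:55578123-55581529, plus strand) and Psme2 (chr14:55587441-55591113, minus strand) are neighbours, and Psmb10 lies alone at chr8:105935735-105938444 on the minus strand. A further copy, Psme2b at chr11:48945354-48946190, has 1 exon against the 11 of Psme2 and matched it at 789 of 794 aligned bases (99.37%), so reads of Psme2 and Psme2b could be exchanged by the authors' counting and both values are uncertain.

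Promoter windows of 2 genes that rose in interferon-high cells, described next, are printed because both genes are interferon-induced and yet the windows differ in a short element. Each window runs from 250 bases before to 50 after the start given by RefSeq on GRCm38.p6, in the direction of the gene: Psme1 at chr14:55578244-55578543 (plus strand) and Psmb9 at chr17:34187281-34187580 (minus strand). Capitals mark a match on either strand to 2 copies of GAAA with 2 bases of any kind between them, the core of the interferon-stimulated response element.
Psme1: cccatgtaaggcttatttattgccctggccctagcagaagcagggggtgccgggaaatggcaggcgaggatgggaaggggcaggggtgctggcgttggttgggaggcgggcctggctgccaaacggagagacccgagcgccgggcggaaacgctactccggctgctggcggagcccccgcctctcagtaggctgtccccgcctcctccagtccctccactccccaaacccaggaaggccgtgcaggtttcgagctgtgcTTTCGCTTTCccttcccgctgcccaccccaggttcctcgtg
Psmb9: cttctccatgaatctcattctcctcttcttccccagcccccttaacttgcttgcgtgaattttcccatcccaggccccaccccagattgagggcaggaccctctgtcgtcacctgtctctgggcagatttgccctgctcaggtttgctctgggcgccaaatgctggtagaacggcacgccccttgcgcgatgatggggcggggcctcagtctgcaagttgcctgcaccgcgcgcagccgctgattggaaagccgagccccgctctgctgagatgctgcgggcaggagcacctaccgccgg
The capitals in Psme1 are a match on the opposite strand that lies after the RefSeq start, and the window of Psmb9 held none. Both windows lie inside the GENCODE bounds of their genes given above. Bases upstream of those bounds were not searched, so an element there would have been missed. Windows were matched for 38 of the 45 genes. The interferon-response pattern was found in 1 of 5 immunoproteasome promoters, 3 of 33 other proteasome promoters and 3.99% of all 27025 genes with a window. The pattern TGACNNNGC, the core of the antioxidant element through which Nfe2l1 and Nfe2l2 drive proteasome genes, was found in 0 of 5, 6 of 33 (Psmb5 and Psmb6 among them) and 14.0%.

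In all 3 classes most UMIs of the catalytic subunit genes came from the immunosubunits. Psmb8 had 804 CPM in the MC38-Ova pool and 885 CPM in the B16-Ova pool in CD8 cells, 919 and 958 CPM in Treg cells, and 813 and 811 CPM in CD4 cells. Its constitutive counterpart Psmb5 had 219 and 238 CPM in CD8 cells, 212 and 228 CPM in Treg cells, and 196 and 175 CPM in CD4 cells. Psmb8, Psmb9 and Psmb10 together gave 73.6% (95% Clopper-Pearson interval 73.2 to 74.1) and 73.3% (72.8 to 73.8) of the UMIs of the 6 catalytic genes in CD8 cells of the MC38-Ova and B16-Ova pools, 77.5% and 76.5% in Treg cells, and 74.7% and 76.6% in CD4 cells. These intervals, and all others on shares and ratios here, cover counting error only. UMIs of different genes were not corrected for length or capture. The level of a share, and the size of a difference between shares of 2 groups, depend on both.

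Among the rest of the core, the structural beta subunit Psmb3 (420 and 445 CPM in CD8 cells of the MC38-Ova and B16-Ova pools) and Psmb1 (407 and 434 CPM) had the most UMIs, and every alpha subunit from Psma1 to Psma7 was between 129 and 356 CPM in each class and pool. Of the activators that interferon is not known for, Psme3 (the nuclear PA28 gamma) had 43.1 to 64.8 CPM and Psme4 (PA200) 17.5 to 24.9 CPM. Psmb11, the thymic subunit, and Psma8, the testis subunit, had 1 UMI each over all classed cells. Psmc3ip, at 6.26 to 12.4 CPM, shares the prefix but is a factor of meiotic recombination and no subunit. Thinned to 2000 UMIs, the median CD8 cell had 5 UMIs of the immunoproteasome genes in both pools, the median Treg cell 6 in both, and the median CD4 cell 4 in the MC38-Ova pool and 5 in the B16-Ova pool. The other genes, without Psmc3ip, gave 8 to 10 UMIs in the median cell of each class and pool.

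The next comparison asked how the subunits differ between cells with more and with less RNA of interferon-stimulated genes. In each class and pool, the 10% of cells with the most UMIs of 17 interferon-stimulated genes (Ifit1, Isg15, Mx1 and others, none of them a proteasome gene) per RNA UMI were set against the remaining cells. This group is set by rank, so its level differed between pools. The 17 genes summed to 6555 and 4294 CPM in interferon-high CD8 cells of the MC38-Ova and B16-Ova pools. The sums were 9115 and 4496 CPM in Treg cells, and 8106 and 6012 CPM in CD4 cells. Each of the 5 immunoproteasome genes had more CPM in interferon-high cells of every class and both pools, while of the 38 other genes tested 1 (Psme2b) rose, in CD8 cells. Psmb10 had the largest fold differences of the 5: interferon-high CD8 cells had 351 CPM in the MC38-Ova pool and 422 CPM in the B16-Ova pool, against 202 and 245 CPM in the remaining CD8 cells. Interferon-high Treg cells had 318 and 384 CPM of Psmb10, against 210 and 253 CPM, and interferon-high CD4 cells had 321 and 435 CPM, against 176 and 223 CPM. By log2 difference, all 5 genes were higher in both pools in each class. Of all genes tested, 3265 of 10960 were so in CD8, 2591 of 9663 in Treg and 2125 of 8860 in CD4 cells.

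Psmb8, with the most UMIs of the 5, had 1129 and 1145 CPM in interferon-high CD8 cells of the MC38-Ova and B16-Ova pools, against 775 and 866 CPM in the rest. Psmb9 had 446 and 432 CPM in those cells, against 298 and 350 CPM. Psme1 had 923 and 931 CPM, against 680 and 672 CPM. Each of the 3 was higher in interferon-high cells of both pools. Psme2 differed least, with 692 and 708 CPM, against 626 and 621 CPM.

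**Figure D1:**
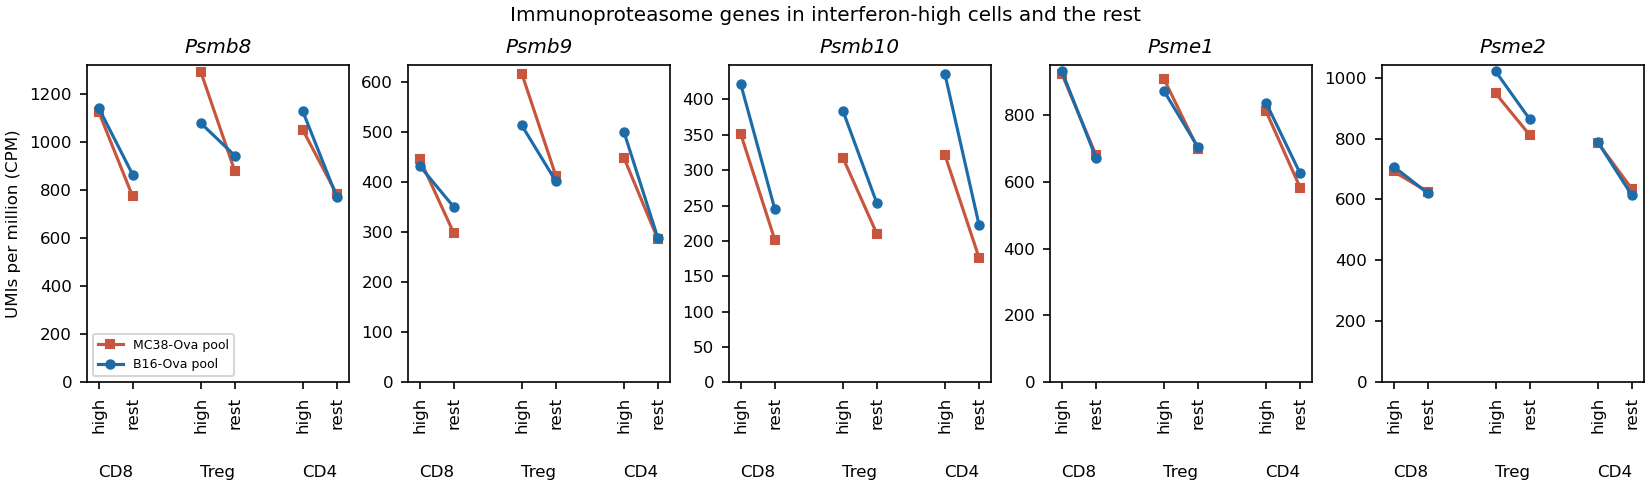
CPM (linear axis from 0 in every panel) of the 5 immunoproteasome genes in the 10% of cells with the highest interferon score (high) and in the other cells (rest) of the CD8, Treg and CD4 classes; each point is 1 sum over cells of 1 pool, and lines join the sums of 1 pool. Every line slopes downwards from high to rest, and relative to the level of the rest Psmb10 differs most.

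The test was edgeR's quasi-likelihood test on 4 sums per class with the pool as a block, with Benjamini-Hochberg adjustment over all genes and a threshold of 0.05. A gene is said to have risen or fallen where it passed it. Of 43 proteasome genes tested in CD8 cells, 5 rose and 2 fell, where 5.6% and 4.32% of all 10960 genes rose and fell. Psmb10 rose by a log2 fold change of 0.85 ± 0.12 (SE, adjusted p = 1.39e-09), Psmb8 by 0.53 ± 0.11 (5.19e-05), Psme1 by 0.51 ± 0.11 (0.000135) and Psmb9 by 0.50 ± 0.12 (0.000714). The Psme2 copy Psme2b rose by 0.81 ± 0.23 (0.00715), from few UMIs: 31.3 and 26.0 CPM in interferon-high cells, against 18.7 and 15.2 CPM. Psme2 itself, at 0.22 (95% interval 0.01 to 0.44, adjusted p = 0.235), did not pass. The 2 that fell were both of the 19S cap, Psmd1 by 0.44 ± 0.15 (adjusted p = 0.0379) and Psmd7 by 0.41 ± 0.14 (0.0390), and these calls were lost in 10 and 9 of the 12 alternatives that give an adjusted p.

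In Treg cells 3 of 43 rose and 1 fell, where 2.41% and 1.59% of all 9663 genes did. Psmb10 rose by 0.68 ± 0.16 (log2, edgeR adjusted p = 0.00248), Psmb9 by 0.55 ± 0.15 (0.0165) and Psmb8 by 0.46 ± 0.14 (0.0442). These calls were lost in 3, 5 and 8 of 12 alternatives. Psme1 at 0.43 (adjusted p = 0.0781) and Psme2 at 0.32 (0.288) were positive in both pools but did not pass. The gene that fell was Psmc3ip, which had 0 UMIs in both interferon-high sums, where 3 UMIs would have been 4.72 and 5.51 CPM, against 7.16 and 10.96 CPM in the remaining Treg cells.

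In CD4 cells 5 of 43 rose and 0 fell, where 2.75% and 0.497% of all 8860 genes did, and the 5 were the 5 immunoproteasome genes. Psmb10 rose by 1.00 ± 0.15 (log2, edgeR adjusted p = 9.11e-09), Psmb9 by 0.81 ± 0.14 (1.55e-06), Psmb8 by 0.57 ± 0.11 (3.94e-05), Psme1 by 0.53 ± 0.12 (0.000831) and Psme2 by 0.41 ± 0.12 (0.0264). The call of Psme2 was lost in 10 of 12 alternatives (adjusted p up to 0.940), and those of the other 4 genes in 1 to 4. At an unadjusted edgeR p under 0.05, 12 of the 43 proteasome genes were higher (27.9%, beside 5.72% of all genes). None of the 43 was lower at that threshold, beside 3.34% of all genes. In this class the fit shared the spread between sums wholly over genes.

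Over the 5 immunoproteasome genes the median log2 difference was 0.51 in CD8, 0.46 in Treg and 0.57 in CD4 cells, beside -0.19, -0.10 and 0.09 over the 38 other genes tested, and -0.02, -0.02 and -0.01 over all genes tested. The constitutive catalytic subunits, which the immunosubunits replace, did not pass in any class. In CD8 cells Psmb5 differed by -0.20 (95% interval -0.44 to 0.04), Psmb6 by -0.25 (-0.50 to -0.004) and Psmb7 by -0.24 (-0.51 to 0.04). In Treg cells Psmb5, Psmb6 and Psmb7 differed by -0.24, -0.19 and -0.22, and in CD4 cells by -0.03, 0.02 and 0.26. Psme3 (-0.32) and Psme4 (-0.004) did not pass either. The 6 ATPases ran from -0.43 to -0.005 in CD8 cells, with 0 of 6 called.

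**Figure D2:**
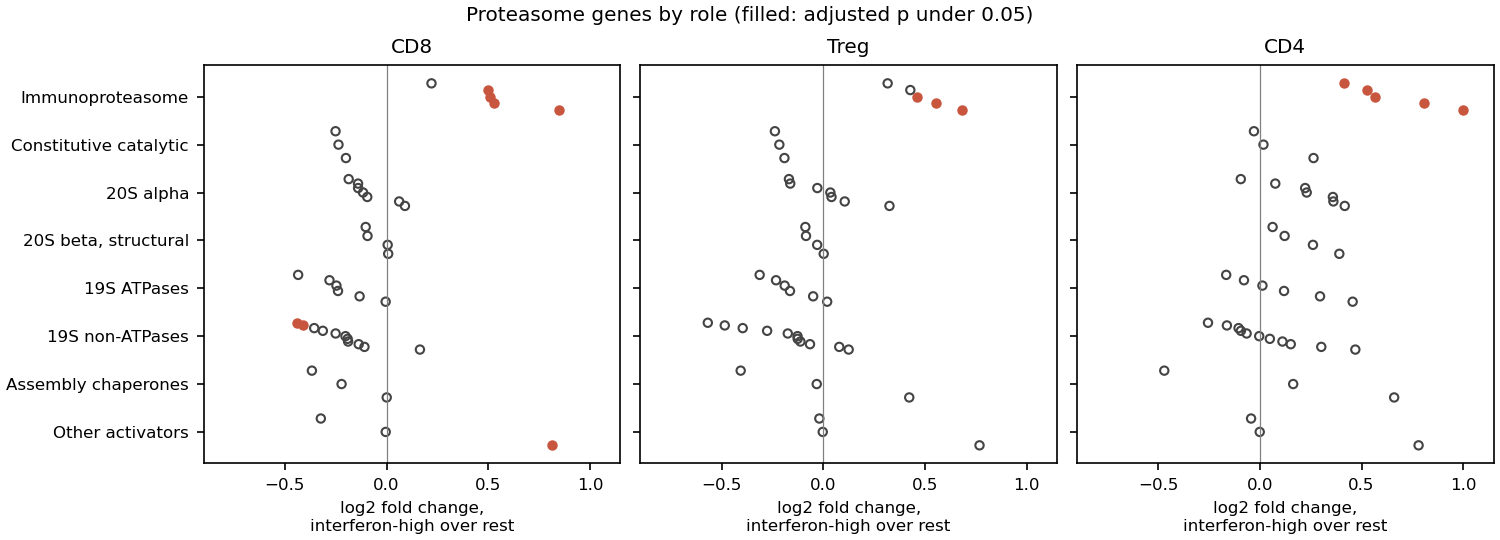
Log2 fold change (interferon-high over the rest, horizontal axis) of each tested proteasome gene, by the role of its subunit (rows), in CD8, Treg and CD4 cells; filled points passed the adjusted p threshold of 0.05 in edgeR. Immunoproteasome genes lie between 0.22 and 1.00 in all panels, and of the 38 other genes tested 7 are above 0 in CD8, 10 in Treg and 24 in CD4 cells. The filled point among the other activators is Psme2b, and Psmc3ip, which is no subunit, is left out.

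The pools are the only replicates and the groups are parts of 1 capture. With 4 sums per class, edgeR took the spread between sums almost wholly from other genes in all 3 classes. Its total degrees of freedom were 174 in CD8, 127 in Treg and 8860 in CD4 cells. The p-values therefore say little about the spread of a single gene between pools. Without the pool as a block 0 proteasome genes passed in any class: Psmb10 differed by 0.84, 0.68 and 1.00 in CD8, Treg and CD4 cells with edgeR adjusted p of 0.128, 0.386 and 0.142. DESeq2 called 3, 0 and 2 proteasome genes, and edgeR on cells without a UMI of a proliferation gene called 3, 0 and 1. Over all 14 alternatives the log2 difference of Psmb10 stayed between 0.76 and 1.07 in CD8, 0.60 and 0.80 in Treg, and 0.65 and 1.06 in CD4 cells, and its adjusted p, given by 12 of them, ran from 7.4e-10 to 0.128, from 0.00013 to 0.386 and from 1.59e-07 to 0.255.

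Interferon-high CD8 cells had fewer RNA UMIs (median 5911.5 and 5663 in the MC38-Ova and B16-Ova pools, against 7082.5 and 7596 in the rest) and less summed RNA of 14 proliferation genes (429 and 771 CPM, against 952 and 1644 CPM). Taking the top 10% within each decile of RNA UMIs, 4 proteasome genes passed in CD8 cells (Psmb8, Psmb9, Psmb10 and Psme1), 2 in Treg cells (Psmb9 and Psmb10) and 5 in CD4 cells (the same 5). The summed CPM of 6 macrophage markers also differed in places: 62.0 and 273 CPM in interferon-high CD8 cells of the MC38-Ova and B16-Ova pools, against 59.0 and 24.3 CPM in the rest, 48.7 and 33.1 CPM in interferon-high Treg cells, against 66.6 and 271 CPM, and 530 and 27.4 CPM in interferon-high CD4 cells, against 56.8 and 32.2 CPM. The 4 stroma markers summed to 142 and 11.3 CPM in interferon-high CD8 cells, against 36.2 and 13.6 CPM, to 15.7 and 3.68 CPM in Treg cells, against 356 and 6.34 CPM, and to 278 and 17.4 CPM in CD4 cells, against 84.4 and 12.1 CPM. With the cells that held 2 or more UMIs of other-cell markers left out, 5 proteasome genes passed in CD8, 4 in Treg and 4 in CD4 cells.

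The exchange of catalytic subunits can be read as a share within each pair. In CD8 cells the 3 immunosubunits gave 82.7% (95% interval 81.5 to 83.9) of catalytic UMIs in interferon-high cells of the MC38-Ova pool, against 72.6% (72.1 to 73.0) in the rest. The B16-Ova pool gave 81.6% (80.2 to 83.1), against 72.6% (72.1 to 73.1). Treg cells gave 85.6% and 82.6%, against 76.4% and 75.8%, and CD4 cells 79.3% and 85.0%, against 74.0% and 75.2%. All 6 differences had the same direction with intervals that did not meet. By position in the barrel, the share of Psmb9 over Psmb6 was 74.2% and 71.6% in interferon-high CD8 cells, against 61.8% and 61.3%, that of Psmb10 over Psmb7 84.8% and 85.3%, against 72.6% and 73.0%, and that of Psmb8 over Psmb5 86.0% and 84.8%, against 77.8% and 78.2%. Each pair differed in the same direction in both pools. No test was made of these shares, and each interval treats UMIs of a group as independent.

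**Figure D3:**
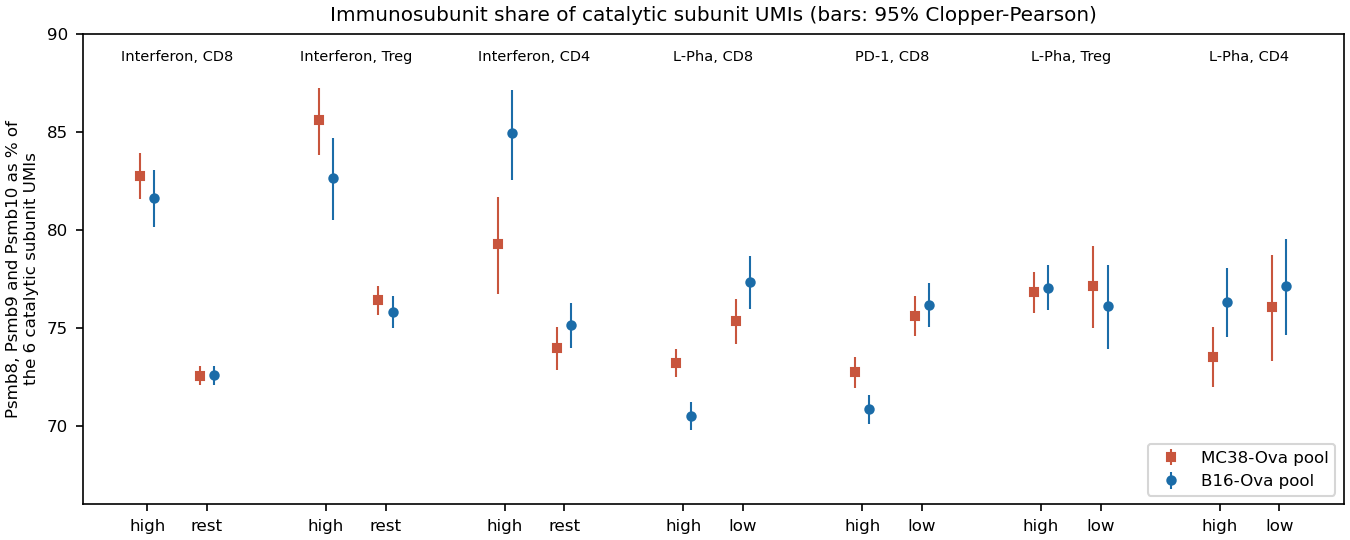
Share of Psmb8, Psmb9 and Psmb10 in the UMIs of the 6 catalytic subunit genes (percent, axis from 66 to 90), in the high and the remaining or low cells of each split, with squares for the MC38-Ova pool and circles for the B16-Ova pool; bars are 95% Clopper-Pearson intervals. Interferon-high cells lie between 79.3% and 85.6%, above the 72.6% to 76.4% of the rest, whereas the L-Pha and PD-1 splits of CD8 cells run the other way.

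Of 13 genes of the class I pathway, 10 rose and 0 fell in interferon-high CD8 cells, where 5.6% and 4.32% of all genes did. Tapbp, which loads peptides on class I molecules, rose by 0.90 ± 0.12 (log2, edgeR adjusted p = 8.4e-11), and Tap1, the peptide transporter next to Psmb9, by 0.64 ± 0.12 (8.28e-06). In Treg cells 3 of 13 rose, where 2.41% of all genes did. Among the 3, Nlrc5, the transactivator of class I genes, rose by 1.03 ± 0.22 (log2, edgeR adjusted p = 0.000363) and Tapbp by 0.70 ± 0.16 (0.000982). In CD4 cells 6 of 13 rose, where 2.75% of all genes did. Among the 6, Nlrc5 rose by 0.83 ± 0.23 (log2, edgeR adjusted p = 0.0138) and Tapbp by 0.71 ± 0.15 (edgeR adjusted p = 7.03e-05). The 14 partners of the proteasome, such as assembly chaperones and deubiquitinases, were also followed. In CD8 cells 3 fell and 0 rose, where 4.32% and 5.6% of all genes did. Of the 14, 5 were above 0 there, beside 5260 of all 10960 genes. In Treg and CD4 cells 0 partners passed in either direction. The assembly chaperone Psmg2 fell by 0.62 ± 0.20 (log2, edgeR adjusted p = 0.0264), the deubiquitinase Usp14 by 0.57 ± 0.18 (0.0181) and the ubiquitin receptor Adrm1 by 0.51 ± 0.15 (0.0113). How these 3 calls fare in the alternatives is not given here. Of 8 genes for factors that control the standard proteasome (Nfe2l1, Nfe2l2, Ddi2 and others) and 16 for ubiquitin and its delivery, 0 passed in any class.

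Of the surface tags, L-Pha binding and PD-1 were compared here and Tim-3 was not. In CD8 cells the top quartile of each tag was set against the bottom quartile within each pool. The standard catalytic subunits had more CPM in the high quartiles, and the 5 immunoproteasome genes were mixed. By log2 difference, 2 of the 5 were higher and 3 lower in both pools for L-Pha. For PD-1, 2 were higher and 2 lower in both pools. The interferon-inducible Psme1 was the lowest of the 5 in both comparisons. Psmb6 had 199.5 and 262 CPM in L-Pha-high CD8 cells of the MC38-Ova and B16-Ova pools, against 152 and 135 CPM in L-Pha-low cells. Psmb5 had 234 and 287 CPM, against 194 and 165 CPM. Psme1 had 681 and 626 CPM, against 732 and 783 CPM.

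None of these differences passed. In the L-Pha comparison edgeR called 0 of 43 proteasome genes, where it called 0.0195% of all 10277 genes, and 4 had an unadjusted p under 0.05, all higher (Psmb6, Psmb7, Psma4 and Psmc3ip), which is 9.30% beside 8.79% of all genes. DESeq2 called 0 as well. The log2 difference of Psmb6 was 0.54 (95% interval 0.07 to 1.02, edgeR adjusted p = 0.251) and that of Psme1 -0.35 (-0.90 to 0.21, adjusted p = 0.497). In the PD-1 comparison 0 of 43 were called by edgeR and 0 by DESeq2, where edgeR called 3.42% of 10339 genes, with 9 higher and 1 lower at an unadjusted p under 0.05 (20.9% and 2.33%, beside 10.3% and 10.4% of all genes). Psmb6 differed by 0.41 (95% interval 0.10 to 0.73, adjusted p = 0.141), Psmb5 by 0.36 (0.07 to 0.65, adjusted p = 0.154) and Psme1 by -0.32 (-0.59 to -0.06, adjusted p = 0.162).

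The median over the 38 other proteasome genes was 0.30 in the L-Pha comparison (0.16 in the MC38-Ova pool and 0.47 in the B16-Ova pool) and 0.25 in the PD-1 comparison, beside -0.06 and 0.03 over the 5 immunoproteasome genes and -0.01 over all genes in both. With library totals, which move the median gene by 0.13 in the L-Pha comparison, its medians were 0.43 over the others and 0.08 over the immunoproteasome genes, whose sign turns. RNA content moved with the tags. The median L-Pha-high CD8 cell had 10617.5 and 13931 RNA UMIs in the MC38-Ova and B16-Ova pools, against 4916.5 and 5391 in L-Pha-low cells, and the 14 proliferation genes summed to 1138 and 2354 CPM, against 751 and 298 CPM. The 4 melanoma markers summed to 35.0 and 536 CPM, against 36.5 and 29.9 CPM. When quartiles were taken within deciles of RNA UMIs, the median over the other proteasome genes was -0.09 for L-Pha and 0.03 for PD-1, and Psmb6 differed by 0.01 and 0.10. The role of proliferation apart from RNA content was not tested.

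The immunosubunit share was compared under the same splits, and what its order rests on was not tested. L-Pha-high CD8 cells had 73.2% and 70.5% in the MC38-Ova and B16-Ova pools, against 75.3% and 77.3% in L-Pha-low cells. Within deciles of RNA UMIs the order turned round, with 75.5% and 73.9%, against 71.3% and 71.1%. Without cells with a proliferation UMI it turned round in the MC38-Ova pool alone, with 77.1% and 77.7%, against 75.8% and 79.2%. PD-1-high CD8 cells had 72.7% and 70.8%, against 75.6% and 76.2%, within deciles 74.0% and 73.1%, against 72.7% and 73.4%, and without cells with a proliferation UMI 77.1% and 74.8%, against 76.6% and 81.2%.

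**Figure D4:**
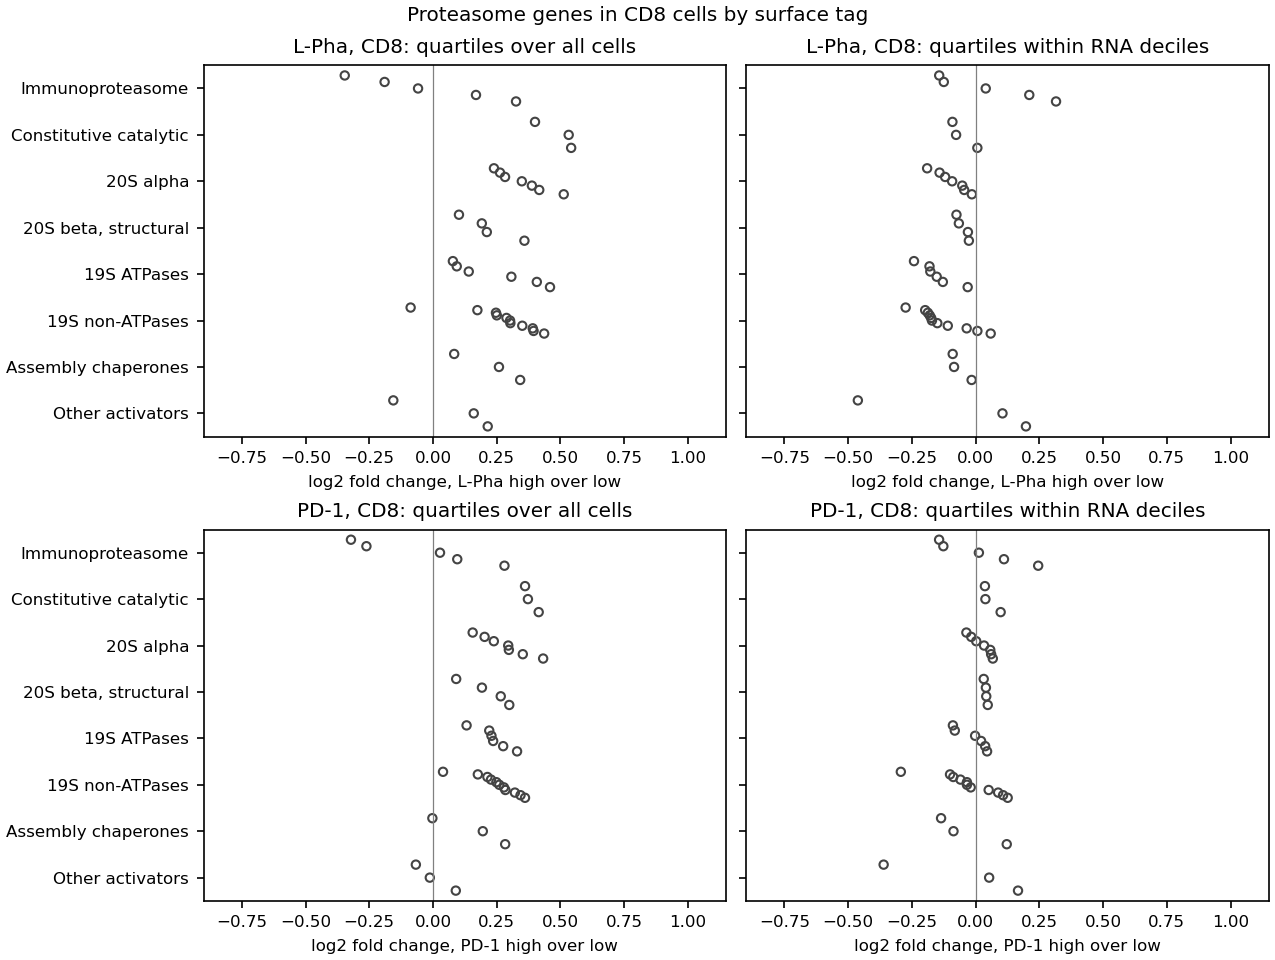
Log2 fold change (high over low quartile, horizontal axis) of each tested proteasome gene in CD8 cells, by role (rows), for L-Pha (top) and PD-1 (bottom), with quartiles taken over all cells of a pool (left) or within deciles of RNA UMIs (right). No gene passed the adjusted p threshold of 0.05 in any panel, and the median over the 38 genes outside the immunoproteasome is 0.30 for L-Pha and 0.25 for PD-1 on the left, -0.09 and 0.03 on the right.

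In Treg cells the L-Pha comparison called 0 of 43 by edgeR and 0 by DESeq2, where edgeR called 1.55% of 8651 genes. At an unadjusted edgeR p under 0.05, 11 were higher (25.6%, beside 9.55% of all genes). Psmb9 came closest among the immunoproteasome genes at 0.48 ± 0.11 (log2, edgeR adjusted p = 0.0932). RNA content moved with the tag here too: the median L-Pha-high Treg cell had 9077 and 10239.5 RNA UMIs in the MC38-Ova and B16-Ova pools, against 3413 and 4008.5. Macrophage markers summed to 77.6 and 524 CPM, against 29.1 and 35.2 CPM. Stroma markers summed to 723 and 4.81 CPM, against 11.8 and 4.86 CPM. In CD4 cells the L-Pha comparison called 1 of 43, where 6.69% of 7566 genes passed: Psmd7, a subunit of the 19S lid, rose by 0.78 ± 0.21 (log2, edgeR adjusted p = 0.0158). Psmd7 had 131 and 97.5 CPM in L-Pha-high CD4 cells of the MC38-Ova and B16-Ova pools, against 67.4 and 66.5 CPM in L-Pha-low cells. That call was lost in 9 of the 12 alternatives that give an adjusted p, among them quartiles within deciles of RNA UMIs. Of the linked genes, Stat3, a transcription factor that can act on proteasome genes, rose in PD-1-high CD8 cells by 0.81 ± 0.12 (edgeR adjusted p = 0.0149).

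Between classes few proteasome genes passed the test. In CD8 against CD4 cells edgeR called 0 of 43, where it called 4.67% of 11178 genes, with 16 higher and 0 lower at an unadjusted p under 0.05 (37.2% and 0%, beside 12.4% and 11.8% of all genes); DESeq2 called 1. Medians were 0.23 over the immunoproteasome genes and 0.20 over the others, and they depend on scaling: with library totals in place of TMM, which moves the median gene by -0.12 in this comparison, they were 0.11 and 0.08. With the 10% of cells of highest RNA content left out, 11 were called, all higher in CD8 cells. RNA content also differed between these classes: the median CD8 cell had 6952.5 and 7358 RNA UMIs in the MC38-Ova and B16-Ova pools, against 4528 and 4107 in CD4 cells. The proliferation genes summed to 909 and 1585 CPM, against 628 and 711 CPM. In Treg against CD4 cells edgeR called 0 of 43, where 2.87% of all genes passed, with 5 higher and 1 lower at an unadjusted p under 0.05 (11.6% and 2.33%, beside 9.47% and 8.36% of all genes), and DESeq2 called 2. Psmb9 had 431 and 412 CPM in Treg cells of the MC38-Ova and B16-Ova pools, against 303 and 311 CPM in CD4 cells (log2 difference 0.45 ± 0.10, edgeR adjusted p = 0.0812). Psme2 had 824 and 878 CPM in Treg cells, against 652 and 633 CPM in CD4 cells (0.39 ± 0.08, edgeR adjusted p = 0.0652).

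In CD8 against Treg cells edgeR called 1 of 43, where 13.9% of all genes passed. Psme3 rose, with 55.4 and 64.8 CPM in CD8 cells of the MC38-Ova and B16-Ova pools, against 43.1 and 52.4 CPM in Treg cells (0.46 ± 0.10, edgeR adjusted p = 0.0322). Without the pool as a block its adjusted p was 0.174. Under library totals, DESeq2 or cells thinned to 2000 UMIs Psme3 did not pass, and Psme2 passed instead as lower in CD8 cells, with 631 and 627 CPM, against 824 and 878 CPM in Treg cells (-0.31 ± 0.08, adjusted p = 0.0551 in the edgeR fit). Library totals move the median gene by -0.13 here. Of the class I pathway, 7 of 13 genes fell in CD8 cells, among them Tap1 (-0.59 ± 0.08, edgeR adjusted p = 0.00724). Of the 14 partners, 1 rose in CD8 cells and 0 fell: Uchl5, a deubiquitinase of the 19S cap, by 0.47 ± 0.12 (edgeR adjusted p = 0.0468).

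Between the tumours, few proteasome genes differed by a large ratio, but most lay below 1 in CD8 and Treg cells: 9 of 43 were above 1 in CD8, 8 of 43 in Treg and 25 of 42 in CD4 cells. Of all genes, 4868 of 9758 were above 1 in CD8, 3549 of 7999 in Treg and 3161 of 6774 in CD4 cells. With 1 pool per tumour there is no test, and the ratio of CPM is given with its exact 95% interval for counting error. Over the genes with at least 100 UMIs, 0 of 43 proteasome genes in CD8 cells had a ratio of MC38-Ova over B16-Ova at or above the inverse of 0.8 and 1 had a ratio of at most 0.8, where 14.1% and 13.7% of all 9758 genes did. In Treg cells 0 and 1 of 43 did, where 12% and 12.8% of 7999 genes did, and in CD4 cells 0 and 3 of 42, where 10.1% and 12% of 6774 did. The gene at most 0.8 in CD8 and Treg cells was Psmc3ip, no subunit (0.504 and 0.656). In CD4 cells the 3 were Psmb10 at 0.781 (0.709 to 0.860), Psme3 at 0.784 (0.642 to 0.956) and the ATPase Psmc1 at 0.792 (0.656 to 0.955).

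The median ratio over all proteasome genes was 0.915 in CD8, 0.937 in Treg and 1.01 in CD4 cells, beside 1.00, 0.977 and 0.986 over all genes. Psmb10 was below 1 in every class, at 0.833 (0.799 to 0.868) in CD8, 0.828 (0.771 to 0.890) in Treg and 0.781 in CD4 cells. Psme1 lay at 1.02, 0.998 and 0.937, and Psmb9 at 0.873, 1.05 and 0.975. The 17 interferon-stimulated genes had a median ratio of 2.28 in CD8 and 2.64 in Treg cells, with all 17 at or above the inverse of 0.8 in both, and 1.46 in CD4 cells, where 11 of the 16 with enough UMIs were. Leaving out the top 10% of cells by interferon score left the number of proteasome genes at or below 0.8 at 1, 1 and 3. In CD8 cells thinned to 2000 UMIs, 42 proteasome genes were counted in place of 43. Of the 42, 2 were at or above the inverse of 0.8 and 0 at or below 0.8. Psmc3ip, the gene at or below 0.8 without thinning, had 131 and 214 UMIs in the MC38-Ova and B16-Ova pools before it. The sets of genes differ, so these counts do not show that any gene changed side.

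**Figure D5:**
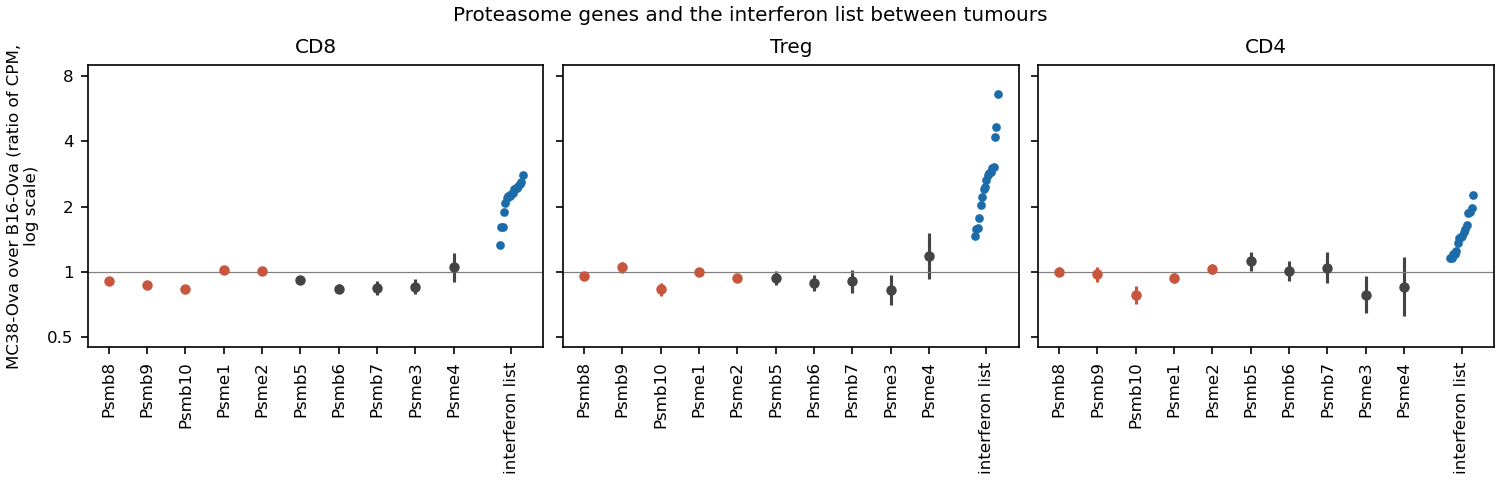
Ratio of CPM, MC38-Ova over B16-Ova (log axis, 1 is no difference), of the 5 immunoproteasome genes (red), the 3 constitutive catalytic subunits, Psme3 and Psme4 (grey) in each class, with exact 95% intervals for counting error, and of each gene of the interferon list (blue, without intervals). The immunoproteasome genes lie between 0.781 and 1.05, and the interferon list reaches 2.79 in CD8, 6.65 in Treg and 2.26 in CD4 cells.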

How the data were processed

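The deposited data were raw UMI counts per gene and cell barcode from 1 10x Genomics 5′ capture, with antibody and hashtag counts in the same table. Reads had been aligned by the authors to mm10 with Cell Ranger 3.1.0, and Seurat 3.1.0 and R 3.6.1 are also named, per the submitters' processing notes; the header of the deposited count matrix gives software version 3.0.2. No normalization had been applied to the deposited counts, and receptor sequences were not used here.

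Barcodes with at least 500 genes, at most 10% mitochondrial UMIs and at least 150 UMIs of 1 hashtag, 3 times the other, were kept, which removes barcodes with much of both hashtags; no doublet caller was run, and doublets within a pool remain. CD8 cells had at least 2 UMIs of Cd8a and Cd8b1 together and none of Cd4 or Foxp3, Treg cells at least 1 of Foxp3 and none of Cd8a or Cd8b1, and CD4 cells at least 1 of Cd4 and none of the others. Classes rest on raw UMIs, so deeper cells were classed more often.

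Raw UMIs were summed per pool and group and tested across all genes with edgeR 4.0.16 (quasi-likelihood, TMM scaling, low-count filter, pool as a block) in R 4.3.3, with Benjamini-Hochberg adjustment. DESeq2 1.42.0 was an alternative, as were other filters, splits and fits without the block. CPM are counts per 1000000 RNA UMIs of a sum. The pool pairs the sums of a split because both parts come from the same pool. Named genes were the 5 immunoproteasome genes, the 3 constitutive catalytic subunits, Psme3, Psme4, the 3 members with the largest called rise and fall in a comparison and 2 each of every linked gene list; others were singled out after their values were seen. The members and lists were chosen with earlier results of these data known. Shares carry Clopper-Pearson intervals and tumour ratios exact conditional intervals, both for counting error only. Some genes of the linked lists are counted but not named, and 1 further promoter pattern is not reported here.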

Additional observations from a re-analysis of the deposited data

How the results depend on the processing

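Counts of proteasome genes past the threshold, all tested, depended on the fit. Without the replicate block, 0 passed in interferon-high CD8, Treg and CD4 cells (7, 4 and 5 with it), 0 in CD8 against Treg and 0 in L-Pha-high CD4 cells (1 each with it); the block changed no other count. DESeq2 gave 3, 0 and 2 in the 3 interferon comparisons, 1 in CD8 against CD4, 2 in Treg against CD4 and 0 in L-Pha-high CD4 cells. In CD8 against Treg cells the 1 gene called was lower, not higher, with library totals, with DESeq2 and with cells thinned to 2000 UMIs. Library totals gave 2 in interferon-high Treg cells, 1 for L-Pha in CD8, 1 in Treg and 2 in CD4 cells. Cells thinned to 2000 UMIs gave 2 in CD8 against CD4 and 2 in Treg against CD4. No low-count filter gave 3 in CD8 against CD4, 2 in Treg against CD4, 2 in CD8 against Treg, 2 for PD-1, 1 for L-Pha in CD8 and 2 in Treg cells. Without the top 10% of cells by RNA UMIs the counts were 11, 2 and 4 for the class comparisons (CD8 against CD4, Treg against CD4, CD8 against Treg), 1 for L-Pha in Treg and 0 in CD4 cells. Without cells with a proliferation UMI they were 3, 1 and 0 for the classes, 3, 0 and 1 for interferon in CD8, Treg and CD4 cells, 1 for L-Pha in Treg and 0 in CD4 cells. Within deciles of RNA UMIs interferon gave 4 in CD8 and 2 in Treg cells, and L-Pha 0 in CD4 cells. The stricter hashtag rule gave 2 for interferon in Treg and 0 for L-Pha in CD4 cells, the 5% mitochondrial limit 1 for L-Pha in Treg cells, terciles 1 in Treg and 0 in CD4 cells, and the top 5% 3 for interferon in CD4 cells. Of settings chosen after seeing the data, leaving out cells with an Mki67 or Top2a UMI gave 2, 1 and 4 for the classes, 3 for PD-1, 3 and 1 for interferon in CD8 and Treg cells and 0 for L-Pha in CD4 cells. Leaving out cells with other-cell markers gave 5, 1 and 3 for the classes and 2 and 0 for L-Pha in Treg and CD4 cells, and leaving out the top 10% by interferon score kept the tumour counts at 1, 1 and 3. For the tumour ratio, members past the fold in CD8 cells (1) numbered 0 with at least 500 UMIs and 2 each without the top 10% by RNA UMIs, without proliferation or Mki67 or Top2a UMIs, with the stricter hashtag rule and when thinned (there both higher in MC38-Ova, where the 1 was lower); in Treg cells (1) 0, 3, 6, 4 (Mki67 or Top2a) and 4 (thinned); and in CD4 cells (3) 1, 5, 7 and 6 (thinned). The thinned CD8 count was over 42 members in place of 43, so it does not show that any gene changed side. Causes were not tested. Of 1709 log2 values of single genes and medians under alternatives, 139 changed sign, 0 of them with a call in either fit; with the tumour ratios included, 85 values lost and 42 gained the threshold and 127 without a test moved beyond their spread; leaving out either pool, which allows no test, moved 19 of 250 values. Depth limits the interferon-high CD4 sum of the B16-Ova pool most, with 402010 UMIs.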
